A study of Mus musculus with 7 samples.

Results

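Transcripts for ligands and receptors of the platelet-derived growth factor (PDGF) and vascular endothelial growth factor (VEGF) families were measured by RNA sequencing in the mouse mesenchymal line C3H10T1/2, with and without activation of Smoothened (Smo). The genes were the rows of the table of gene counts with the symbols Pdgfa, Pdgfb, Pdgfc, Pdgfd, Pdgfra, Pdgfrb, Vegfa, Vegfb, Vegfc and Figf, the last being an earlier symbol of Vegfd. All 10 have a row among the 18468 genes of the table, and all 10 passed the filter on low counts that left 12388 genes to test. After 12 h in medium without serum, cells of both groups spent 48 h with either the Smo agonist purmorphamine at 2 μM (n = 4, the libraries numbered 5 to 8) or 0.02% DMSO as vehicle (n = 3, numbered 2 to 4), still in the absence of serum. All libraries come from a single cell line. The sample labels give at most 10 passages, whereas the paper's methods set the limit at 12 passages from purchase.

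PDGF ligands are dimers that bind receptor tyrosine kinases on mesenchymal cells and drive their proliferation and migration. The A and C chains act chiefly through PDGFRα, the D chain chiefly through PDGFRβ, and the B chain through both. VEGF ligands belong to the same structural superfamily, but their receptors (Flt1, Kdr and Flt4) are known mainly from endothelial cells, to which mesenchymal cells present VEGF as a paracrine signal that guides vessel growth.

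Totals ran from 14337225 to 14342154 reads per library, the authors having resampled the libraries to equal depth, so that a gene without a read in a library may still have up to 3 reads there, or 0.209 CPM (counting error only). Pairs of libraries of one treatment differed by a chi-square per gene averaging 2.07 to 8.03, above sampling noise, and pairs of different treatments by 43.7 to 56.3. The labels do not say whether the libraries of a group come from separate cultures, so p-values measure the spread between these libraries, which may be technical. Gli1, Ptch1 and Hhip, transcripts that Hedgehog signaling is known to induce, were all higher with purmorphamine. Gli1 had 7 to 12 reads with vehicle and 2522 to 3171 with purmorphamine, Ptch1 504 to 532 and 10296 to 11451, and Hhip 0 to 1 and 139 to 197. All 9 mesenchymal markers were counted in every library, summing to 265576 to 271391 reads with vehicle and 236725 to 255617 with purmorphamine. Of these 5 were called higher and 3 lower, against 31.4% and 31.1% of genes tested. The most abundant, Col3a1, was among those higher (82275 to 84204 reads with vehicle and 94063 to 106038 with purmorphamine). Vim, Col1a2 and Lum were lower, and Vim had 79220 to 81440 reads with vehicle and 41359 to 43378 with purmorphamine.

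Purmorphamine changed transcripts for most of the ligands and for 1 of the 2 PDGF receptors. Pdgfra, Vegfa, Vegfb and Pdgfc were higher with purmorphamine, whereas Pdgfd, Figf, Pdgfb and Vegfc were lower, and no call was made for Pdgfa or Pdgfrb. Calls rest on an adjusted p (Benjamini-Hochberg) below 0.2, the FDR of the study, in the quasi-likelihood fit of edgeR over all genes tested, from which the log2 fold changes and their standard errors (SE) also come. Changes were common in these cells: 31.4% of genes tested were called higher and 31.1% lower, 62.5% in all, so that 4 of 10 in each direction is not far from the share among all genes. That even split depends on the TMM factors: 50.2% of calls were higher with them, and 59.5% (4650 higher and 3163 lower) with library totals alone. The deposited counts of the groups did not overlap for 7 of the 10 genes, against 49.5% of genes tested. They lay higher with purmorphamine for 4 genes, where 29.1% of genes tested did, and lower for 3, where 20.4% did. The median log2 fold change of the 10 genes was -0.014, against 0.0038 for all genes tested. Because the libraries are from bulk RNA, a change in the number of cells that hold a transcript and a change in the amount per cell cannot be told apart.

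**Figure D1:**
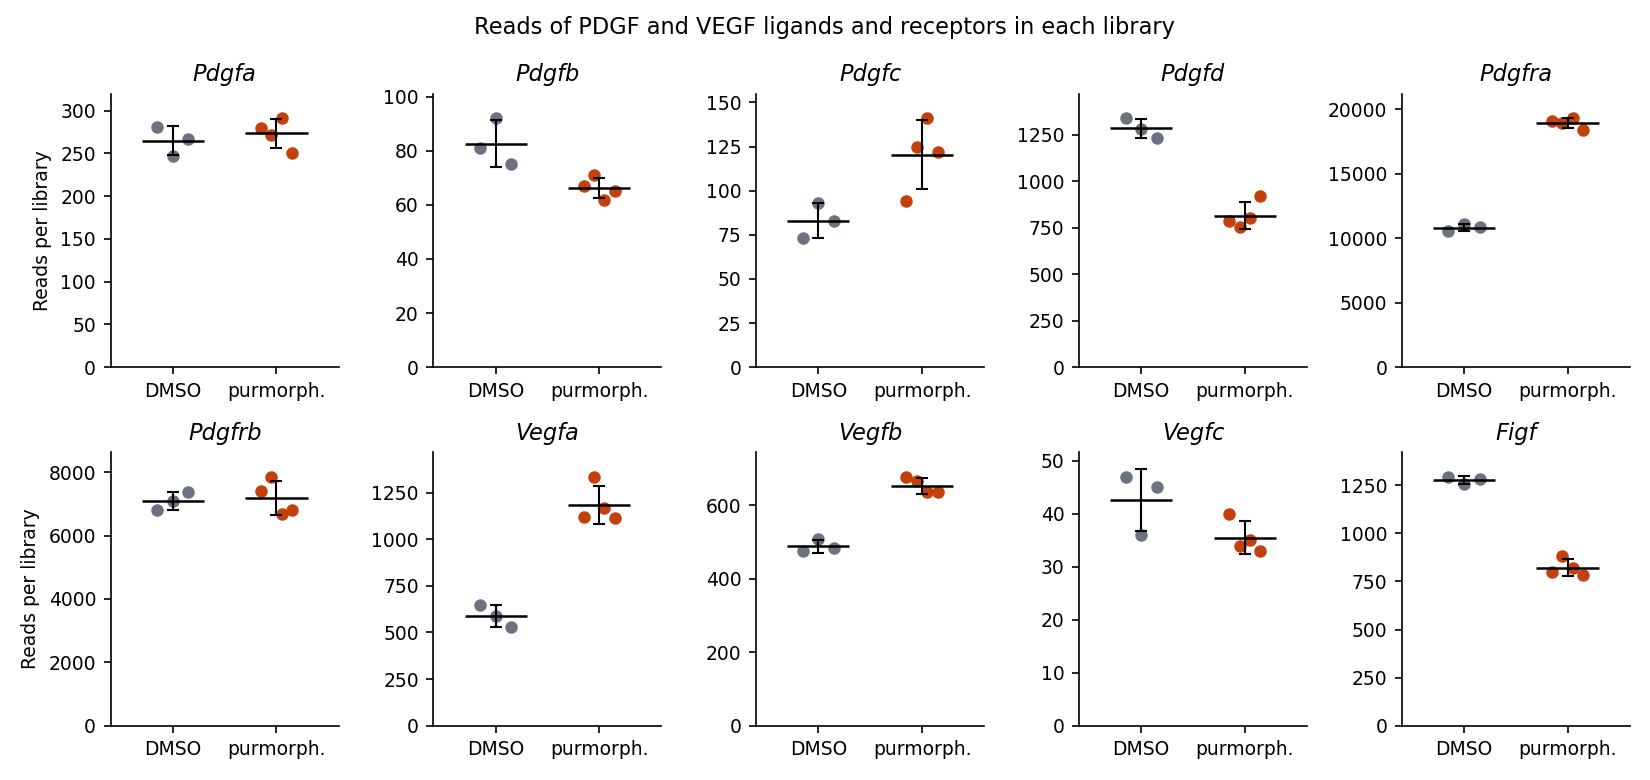
Reads in each library (y axis, from 0, each panel on its own scale) for the 10 genes, with DMSO libraries in grey and purmorphamine libraries in red-brown, the horizontal line at the mean and the error bar 1 SD (n = 3 and n = 4). All purmorphamine libraries lie above all vehicle libraries for Pdgfra, Vegfa and Vegfb and below them for Pdgfd, Figf and Pdgfb, while the groups of Pdgfa, Pdgfrb and Vegfc overlap and those of Pdgfc are 1 read apart.

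The sequences around the RefSeq transcription start of the 4 genes with the largest changes are shown, 2 that were higher and 2 that were lower. These starts are annotated, and counts per gene do not show which start the cells used. For Vegfa the first of 2 listed starts is shown. Each runs 5′ to 3′ on the strand of the gene, from 250 bases before the start to 50 bases after it, in GRCm38.p6. Capitals mark matches, on either strand, to the letters TATAAA (as in a TATA box), GGGCGG (as in a GC box) or CCAAT. Whether any match acts in these cells was not tested. The windows are chr5:75152001-75152300 (plus strand) for Pdgfra, chr17:46032328-46032627 (minus strand) for Vegfa, chr9:6168236-6168535 (plus strand) for Pdgfd and chrX:164373272-164373571 (plus strand) for Figf.
Pdgfra: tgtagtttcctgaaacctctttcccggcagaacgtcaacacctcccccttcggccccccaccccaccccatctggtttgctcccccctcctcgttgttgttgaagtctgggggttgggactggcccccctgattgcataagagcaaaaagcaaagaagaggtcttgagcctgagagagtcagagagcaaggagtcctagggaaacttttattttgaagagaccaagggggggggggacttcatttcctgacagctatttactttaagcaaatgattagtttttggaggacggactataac
Vegfa: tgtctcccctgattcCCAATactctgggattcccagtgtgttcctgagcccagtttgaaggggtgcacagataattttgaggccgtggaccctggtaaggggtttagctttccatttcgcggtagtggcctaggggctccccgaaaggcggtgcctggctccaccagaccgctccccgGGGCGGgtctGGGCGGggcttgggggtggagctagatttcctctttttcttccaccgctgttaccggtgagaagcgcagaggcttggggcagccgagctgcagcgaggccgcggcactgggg
Pdgfd: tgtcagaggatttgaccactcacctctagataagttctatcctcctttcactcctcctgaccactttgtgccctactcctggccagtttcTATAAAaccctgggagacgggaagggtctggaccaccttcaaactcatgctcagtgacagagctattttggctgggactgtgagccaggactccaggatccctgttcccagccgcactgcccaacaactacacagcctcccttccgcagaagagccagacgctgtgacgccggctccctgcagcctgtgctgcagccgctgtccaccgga
Figf: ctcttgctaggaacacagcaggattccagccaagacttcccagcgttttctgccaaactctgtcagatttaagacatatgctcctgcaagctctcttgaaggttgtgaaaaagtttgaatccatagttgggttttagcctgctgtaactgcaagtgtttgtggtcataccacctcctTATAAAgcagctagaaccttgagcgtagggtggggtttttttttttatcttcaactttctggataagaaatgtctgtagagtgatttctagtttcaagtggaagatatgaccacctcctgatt

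RefSeq windows were found for 8 of the 10 genes, 10 windows in all, those of Pdgfb and Pdgfrb having no entry. TATAAA occurred in the windows of Pdgfd, 160 bases before the start, and Figf, 73 bases before it, and in none of the other windows. GENCODE begins Figf at 164373378, before that match, which is therefore upstream of the RefSeq start only. Vegfc, also called lower, had no TATAAA, and no link of a motif to direction was tested. Of all 32851 windows 13.6% hold it. GGGCGG occurred in the windows of Pdgfa, Vegfa, Vegfb and Vegfc but not in those of Pdgfra, Pdgfc, Pdgfd or Figf, and 35.7% of all windows hold it. The Gli consensus GACCACCCA was in none of the 10 windows, and is in 0.253% of all windows, so that its absence from so short a stretch says nothing about Gli binding elsewhere. ACGTG, the core bound by hypoxia-inducible factors, was found once, at the second start listed for Vegfa (chr17:46025114-46025413, minus strand), and 19.6% of all windows hold it. That second start lies within the gene as GENCODE places it (46016993 to 46032369). CCAAT was found in both windows of Vegfa and in no other, and 37.4% of all windows hold it. None of these motifs contains another.

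Pdgfra and Pdgfrb encode the receptors PDGFRα and PDGFRβ, and were the most abundant of the 10 transcripts. Pdgfra (ENSMUSG00000029231, chromosome 5 from 75152292 to 75198215 in GRCm38) had 10552, 11060 and 10826 reads with vehicle, against 19101, 18882, 19275 and 18354 with purmorphamine. The groups were 7294 reads apart at their closest, many times the spread within either. The means were 10813 ± 254 (SD, n = 3) and 18903 ± 400 (SD, n = 4), a ratio of 1.75, and Pdgfra moved from 124th to 56th among all genes by mean reads, or from 0.0754% to 0.132% of all reads. Its log2 fold change was 0.76 (SE 0.045, edgeR adjusted p = 3.92e-10), and 10.4% of genes tested changed by more in either direction.

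Pdgfrb (ENSMUSG00000024620, chromosome 18 from 61045150 to 61085061) had 6810, 7083 and 7377 reads with vehicle, against 7415, 7851, 6686 and 6806 with purmorphamine, and the purmorphamine libraries lay on both sides of the vehicle libraries. The means were 7090.0 ± 284 (SD, n = 3) and 7190 ± 544 (SD, n = 4). The log2 fold change was -0.027, with a 95% interval from -0.14 to 0.090 (adjusted p = 0.721 from edgeR), which leaves room for a decrease to 0.904-fold or an increase to 1.06-fold. Its sign changed with the scaling of the libraries. Pdgfra and Pdgfrb thus parted: the ratio of the former to the latter, per kilobase of exon, was 0.847, 0.853 and 0.802 with vehicle and 1.41, 1.31, 1.58 and 1.47 with purmorphamine, with no overlap. A ratio within a library does not depend on scaling between libraries, but its size depends on the length given to each gene. With exon unions from GENCODE the vehicle mean was 0.834 and with the longest transcripts 1.21, so that which of the receptors was the more abundant with vehicle is not settled here, whereas Pdgfra was the more abundant with purmorphamine under either length. An exon of Pdgfra also holds Mir7025 on the same strand, from which reads cannot be separated.

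**Figure D2:**
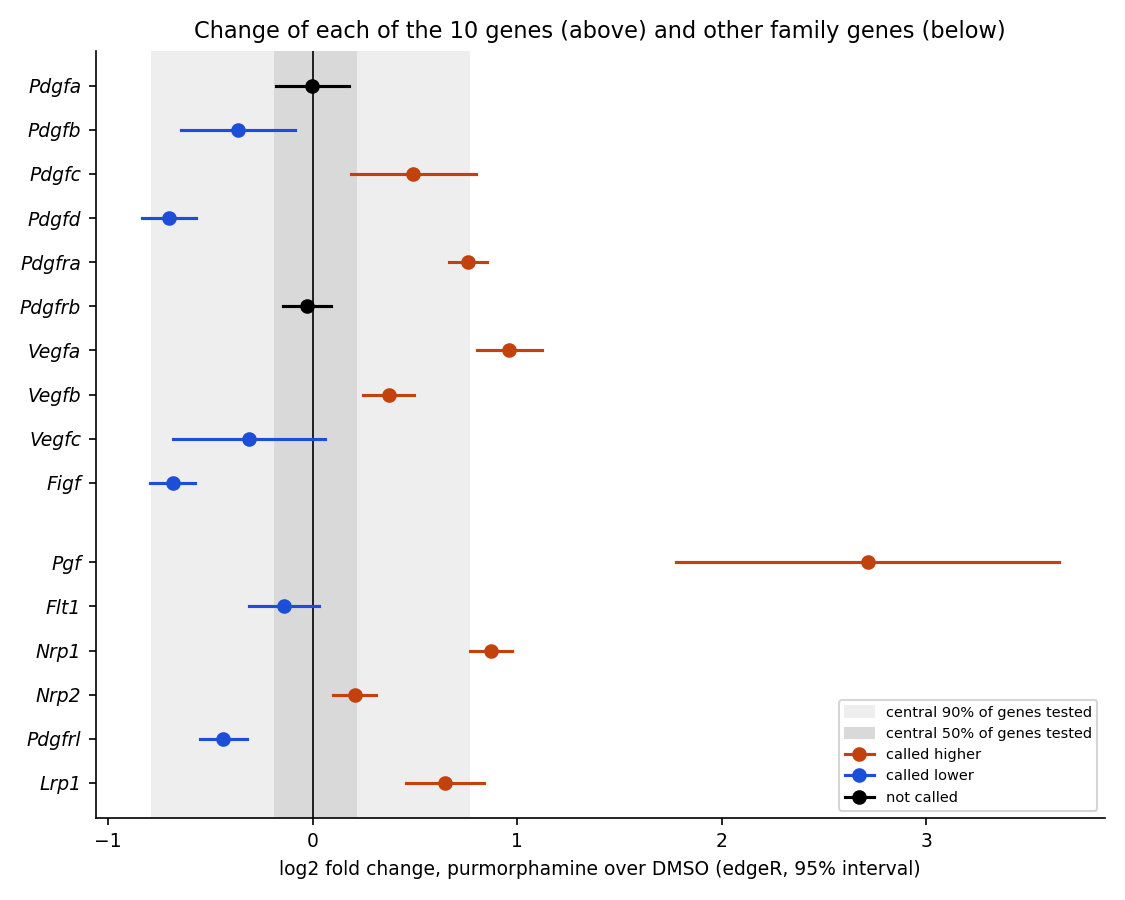
Log2 fold change of purmorphamine over DMSO (x axis, edgeR) with its 95% interval, over bands that hold the central 50% and 90% of the genes tested. The 10 genes are above, and below them are 6 further genes, of the families or associated with them, that passed the filter. Pdgfra and Vegfa lie near or past the upper edge of the wider band (0.77), Pdgfd and Figf near its lower edge (-0.79), and Pdgfa and Pdgfrb at 0. The value of Pgf rests on 2 reads in each vehicle library.

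Among the PDGF ligands the D chain was the most abundant transcript and was lower with purmorphamine. Pdgfd (ENSMUSG00000032006, chromosome 9 from 6168584 to 6378850) had 1337, 1282 and 1232 reads with vehicle, against 784, 753, 801 and 918 with purmorphamine. The groups were 314 reads apart, and the library numbered 8 was the highest of its group. The means were 1284 ± 52.5 (SD, n = 3) and 814 ± 72.1 (SD, n = 4), a log2 fold change of -0.70 (SE 0.063, edgeR adjusted p = 6.88e-08).

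Pdgfb, which encodes the B chain (ENSMUSG00000000489, chromosome 15 from 79995874 to 80014977), was far less abundant, with 81, 92 and 75 reads with vehicle, against 67, 71, 62 and 65 with purmorphamine. The groups did not overlap, but only 4 reads separated them. Its log2 fold change was -0.37 (SE 0.13, edgeR adjusted p = 0.0303), from 82.7 ± 8.62 to 66.2 ± 3.77 reads. Without the vehicle library numbered 3 the adjusted p was 0.147 from edgeR, and with DESeq2 on all libraries it was 0.0948.

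Pdgfc, which encodes the C chain, a latent ligand that must be cleaved to bind PDGFRα (ENSMUSG00000028019, chromosome 3 from 81036416 to 81214040), had 73, 93 and 83 reads with vehicle, against 94, 125, 141 and 122 with purmorphamine. The lowest purmorphamine library, numbered 5, stood 1 read above the highest vehicle library, and after TMM scaling (edgeR's correction for library composition) the groups overlapped (exact permutation test, two-sided, p = 0.0857). Its log2 fold change was 0.49 (SE 0.14, edgeR adjusted p = 0.0104), from 83.0 ± 10.0 to 120.5 ± 19.5 reads. Without the library numbered 5 it was 0.60, and without that numbered 7 it was 0.41.

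Pdgfa, which encodes the A chain (ENSMUSG00000025856, chromosome 5 from 138976014 to 138997370), had 281, 247 and 267 reads with vehicle, against 280, 272, 291 and 251 with purmorphamine, ranges that overlap almost wholly. The log2 fold change was -0.0015, with a 95% interval from -0.18 to 0.18 (adjusted p = 0.991 from edgeR), or from 0.884-fold to 1.13-fold. Its sign, like that of Pdgfrb, changed with the scaling. GENCODE places an antisense gene over exons of Pdgfa, of Pdgfc and of Pdgfra. The kit marks strand and only sense reads were counted.

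Counted per kilobase of exon and scaled to library size (RPKM), the 4 PDGF ligand transcripts summed to 38.2, 36.7 and 35.6 with vehicle and to 26.0, 25.6, 27.2 and 28.7 with purmorphamine, so that every purmorphamine library was lower. Pdgfd made up 77.1 ± 0.475% of the sum with vehicle (SD, n = 3) and 66.9 ± 2.72% with purmorphamine (SD, n = 4). The share of Pdgfa was 16.1 ± 0.91% and 22.8 ± 2.17%, and that of Pdgfc 3.10 ± 0.436% and 6.14 ± 0.954%. Shares of Pdgfa and Pdgfc were larger with purmorphamine in every library and that of Pdgfd smaller, whereas the shares of Pdgfb overlapped. The rise in the share of Pdgfa went with no call for Pdgfa itself. With longest transcripts as the lengths, Pdgfd made up 69.4% and 57.8%. These shares and sums are a description and were not tested.

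The transcript with the largest change of the 10 was Vegfa, which encodes VEGF-A, the principal angiogenic ligand (ENSMUSG00000023951, chromosome 17 from 46016993 to 46032369). It had 646, 591 and 528 reads with vehicle, against 1118, 1335, 1170 and 1112 with purmorphamine. The lowest purmorphamine library was 466 reads above the highest vehicle library. From a mean of 588 ± 59.05 (SD, n = 3) to 1184 ± 104 (SD, n = 4), the ratio was 2.01 and the log2 fold change 0.96 (SE 0.075, edgeR adjusted p = 1.35e-08), and 7.10% of genes tested changed by more. Splice forms of Vegfa, which differ in their binding to matrix, are not separated in counts per gene.

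Vegfb, which encodes a ligand of Flt1 (ENSMUSG00000024962, chromosome 19 from 6982473 to 6987651), rose as well, and less. It had 474, 508 and 484 reads with vehicle, against 677, 665, 635 and 635 with purmorphamine, groups 127 reads apart. Its log2 fold change was 0.37 (SE 0.059, edgeR adjusted p = 6.04e-05), from 489 ± 17.5 to 653 ± 21.4 reads.

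Figf and Vegfc encode VEGF-D and VEGF-C, the ligands of Flt4 known for the growth of lymphatic vessels. Figf (ENSMUSG00000031380, chromosome X from 164373378 to 164402650) had 1294, 1256 and 1283 reads with vehicle, against 801, 881, 822 and 783 with purmorphamine, groups 375 reads apart. For Figf the log2 fold change was -0.68 (SE 0.052, edgeR adjusted p = 9.59e-09), from 1278 ± 19.6 to 822 ± 42.6 reads.

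Vegfc (ENSMUSG00000031520, chromosome 8 from 54077606 to 54187096) had the least certain call of the 8. It had 47, 36 and 45 reads with vehicle, against 40, 34, 35 and 33 with purmorphamine, and the vehicle library numbered 3 lay within the purmorphamine range. The log2 fold change was -0.31, with a 95% interval from -0.68 to 0.061 (adjusted p = 0.161 from edgeR). The call was lost without the vehicle library numbered 2 (adjusted p = 0.411 from edgeR) or 4 (0.343), and without the purmorphamine library numbered 6 (0.245), 7 (0.214) or 8 (0.269). It was also lost with DESeq2 (0.327), without a filter on low counts (0.233) and with library totals in place of TMM factors (0.229).

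As with the PDGF ligands, the balance among the VEGF ligands shifted, but their sum did not separate the groups. The summed RPKM was 69.9, 69.1 and 68.1 with vehicle and 72.0, 77.1, 71.4 and 69.3 with purmorphamine. Figf fell from 53.6 ± 0.973% of the sum (SD, n = 3) to 32.8 ± 0.473% (SD, n = 4), with Vegfa going from 13.9 ± 1.21% to 26.6 ± 1.22% and Vegfb from 30.8 ± 1.25% to 39.2 ± 1.47%. For these 3 the shares of the groups did not overlap, so that Vegfb had the largest share with purmorphamine and Figf with vehicle. The ratio of Vegfa to Figf was 0.281, 0.264 and 0.231 with vehicle and 0.784, 0.852, 0.7999 and 0.798 with purmorphamine.

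**Figure D3:**
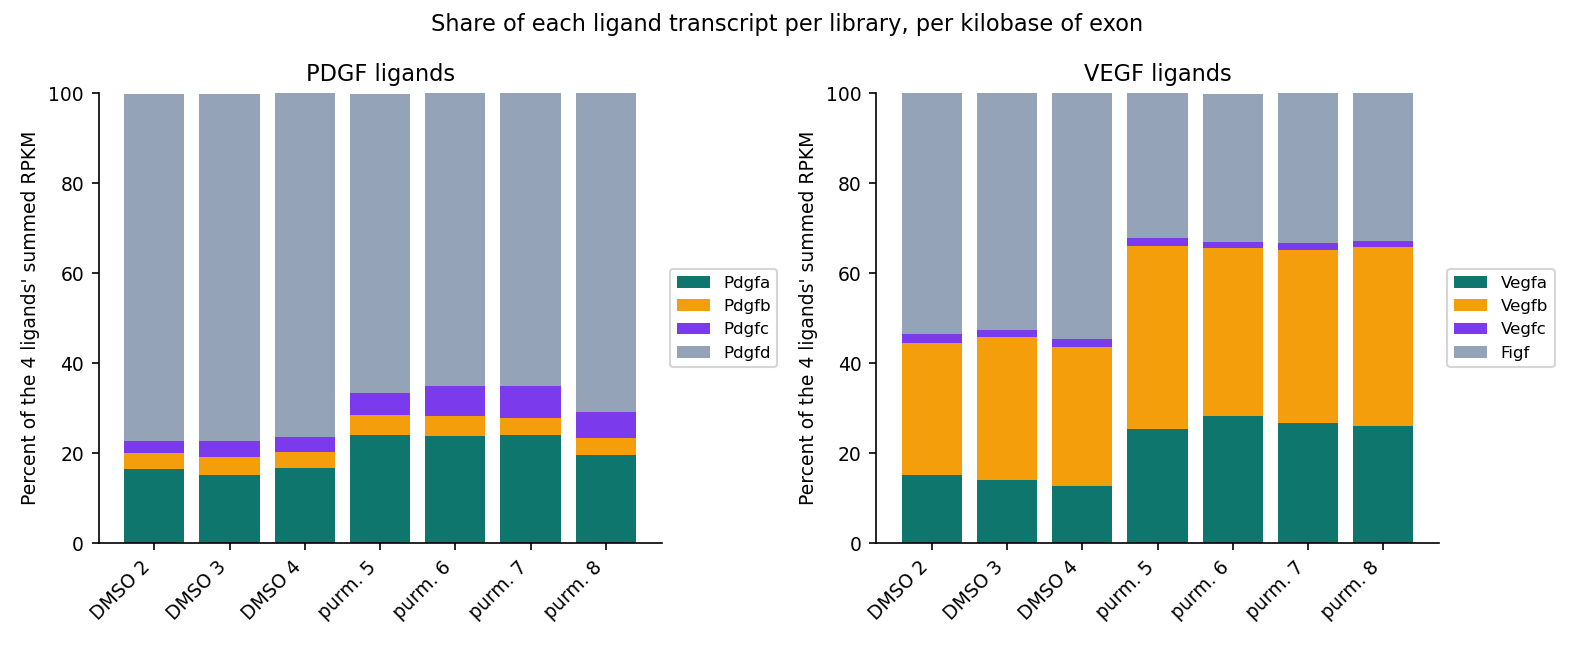
Share of each ligand in the summed RPKM of the 4 PDGF ligands (left) and the 4 VEGF ligands (right), in percent (y axis, from 0 to 100), 1 bar per library. Pdgfd gives way in part to Pdgfa and Pdgfc in the purmorphamine libraries, and Figf to Vegfa and Vegfb.

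Per kilobase of exon, the levels with vehicle ran from Pdgfrb (90.2 ± 3.61 RPKM, SD, n = 3) and Pdgfra (75.2 ± 1.77) through Figf (37.0 ± 0.565), Pdgfd (28.4 ± 1.16), Vegfb (21.2 ± 0.76), Vegfa (9.57 ± 0.961) and Pdgfa (5.92 ± 0.382) to Pdgfb, Vegfc and Pdgfc, at 1.39, 1.21 and 1.14. The last of these were not separable, since their libraries overlapped from one to the next. With purmorphamine the order was Pdgfra (132 ± 2.78 RPKM, SD, n = 4), Pdgfrb (91.5 ± 6.94), Vegfb (28.4 ± 0.93), Figf (23.8 ± 1.23), Vegfa (19.3 ± 1.70), Pdgfd (18.0 ± 1.59), Pdgfa (6.12 ± 0.378), Pdgfc (1.65 ± 0.268), Pdgfb (1.11 ± 0.0633) and Vegfc (1.01 ± 0.0886). Here the libraries of Vegfa and Pdgfd overlapped, as did those of Pdgfb and Vegfc. Both receptors for PDGF therefore exceeded every ligand transcript in either condition.

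With all 35 ways of assigning the libraries enumerated (exact permutation test, two-sided, on log2 counts after TMM scaling with 1 added), p was 0.0286, the smallest that 3 libraries against 4 allow, for Pdgfra, Vegfa, Vegfb, Pdgfd, Figf and Pdgfb. It was 0.0857 for Pdgfc and Vegfc, 0.686 for Pdgfrb and 0.971 for Pdgfa. The 3 genes whose log2 CPM values followed Vegfa most closely over the 7 libraries were Pi16 (Pearson's r = 0.997), Vldlr (0.996) and Meaf6 (0.995). As many as 715 genes had an r over 0.95 with Vegfa, and the likeness is a description.

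Receptors, co-receptors and a ligand beyond the 10 genes were read from a list of 8 further genes, of the families or associated with them. Of these 6 passed the filter, 4 being called higher and 2 lower (Flt1 and Pdgfrl), against 31.4% and 31.1% of genes tested. Pgf passed the filter only through the purmorphamine libraries, where it was high, and with at least 10 counts required in every library 3 were called higher. Transcripts for the endothelial VEGF receptors were nearly lacking: Kdr had 1, 4 and 0 reads with vehicle and 1 read in each purmorphamine library, and Flt4 had at most 3 reads in any library. Flt1, a receptor of VEGF-A and VEGF-B, was present, with 314, 345 and 364 reads with vehicle, against 308, 330, 343 and 296 with purmorphamine. Its groups overlapped. The log2 fold change of Flt1 was -0.14 with a 95% interval from -0.31 to 0.028 (adjusted p = 0.161 from edgeR), a call that was lost in 7 of 13 refits, among them those without the vehicle library numbered 3 or 4 and without the purmorphamine library numbered 5 or 8 (adjusted p up to 0.497).

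Neuropilins, which bind VEGF-A alongside its receptors and also bind semaphorins, were both higher with purmorphamine. Nrp1 had 5157, 5359 and 5593 reads with vehicle, against 9861, 10489, 10311 and 9932 with purmorphamine, and its log2 fold change was 0.87 (SE 0.048, edgeR adjusted p = 1.32e-10). Nrp2 rose by less, from 953 ± 36.4 to 1135 ± 33.8 reads (log2 fold change 0.21, adjusted p = 0.0029 from edgeR). Neither gene had overlapping groups. Lrp1, which encodes an endocytic receptor that associates with PDGFRβ, rose from 16300 ± 2084 to 26342 ± 3291 reads (log2 fold change 0.65, adjusted p = 1.62e-05 from edgeR). Pdgfrl, which encodes a protein resembling the extracellular part of a PDGF receptor, fell from 2608 ± 178 to 1991 ± 104 reads (log2 fold change -0.44, adjusted p = 5.0e-06 from edgeR). Pgf, a ligand of Flt1, had 2 reads in each vehicle library and 16, 13, 10 and 18 with purmorphamine. The 57 reads against 6 give a ratio of means of 7.13, with a counting interval from 3.08 to 20.2 (exact binomial, 95%). That interval pools the reads of each group and leaves out the spread between libraries.

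Of 9 listed genes for the processing or retention of the ligands that were counted, 8 were tested. Of these 3 were called higher and 4 lower, against 31.4% and 31.1% of genes tested. The median log2 fold change of the list was -0.037. The increases were large. Adamts14, a procollagen N-proteinase of the family that cleaves VEGF-C, rose from 68.3 ± 13.6 to 756 ± 152 reads (log2 fold change 3.42, adjusted p = 2.07e-11 from edgeR), Plat, the tissue plasminogen activator that activates PDGF-C, from 192 ± 11.2 to 753 ± 42.9 (1.92, adjusted p = 1.85e-12), and Ccbe1, a cofactor in the cleavage of VEGF-C, from 84.3 ± 3.06 to 246.5 ± 16.01 (1.499, adjusted p = 2.52e-09). Sparc, a matricellular protein that binds PDGF, fell from 68599 ± 2929 to 47531 ± 3166 reads (log2 fold change -0.58, adjusted p = 1.74e-07 from edgeR). Furin, a protease of PDGF and VEGF-C precursors, and Plau, the urokinase that activates PDGF-D, were lower as well, with log2 fold changes of -0.48 and -0.28. Ctsd was the remaining gene called lower (log2 fold change -0.11, adjusted p = 0.162 from edgeR), and its groups overlapped.

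All 25 listed relays downstream of the receptors were tested, 7 were called higher and 6 lower, which is 13 of 25 against 62.5% of genes tested, and the median log2 fold change was 0.00011. The largest increases were those of Nck1 (0.58), an adaptor, Fyn (0.56), a Src-family kinase, and Grb10 (0.49), an adaptor, and the largest decreases those of Nck2 (-0.35), Ptpn1 (-0.24) and Ptpn2 (-0.18), the latter pair being phosphatases that act on receptor tyrosine kinases.

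Vegfa is a textbook target of hypoxia-inducible factors, and other genes of that response were read beside it. Protein and activity of these factors were not measured, and whether they bear on the change of Vegfa was not tested. Of 12 hypoxia-responsive genes tested, 10 were called lower and 0 higher, against 31.1% and 31.4% of genes tested, with a median log2 fold change of -0.36. At an unadjusted p under 0.05 the number higher in edgeR was also 0, as it was by DESeq2 and limma-voom after adjustment. The others, Ankrd37 and Ero1l, had intervals that include 0 (from -0.31 to 0.63 and from -0.18 to 0.047). With a change of at least 1.5-fold required 5 were called lower, and with at least 10 counts in every library 9. The list was chosen with earlier results of these data known, so these counts are a description. Car9, a carbonic anhydrase, had 60, 66 and 64 reads with vehicle, against 13, 16, 11 and 9 with purmorphamine (log2 fold change -2.41, adjusted p = 3.41e-08 from edgeR). Adm, the vasodilator adrenomedullin, and Slc2a1, the glucose transporter Glut1, had log2 fold changes of -1.13 and -1.03. Of 7 regulators of the factors tested, 3 were called higher and 2 lower, against 31.4% and 31.1% of genes tested. Transcripts of Hif1a and Epas1, which encode the inducible subunits, fell by 0.48 and 0.46 on the log2 scale. Those of Arnt, Egln1 and Egln2, a partner subunit and 2 prolyl hydroxylases, rose by 0.17, 0.13 and 0.26. Without the vehicle library numbered 3 the call for Egln1 was lost (adjusted p = 0.227 from edgeR).

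**Figure D4:**
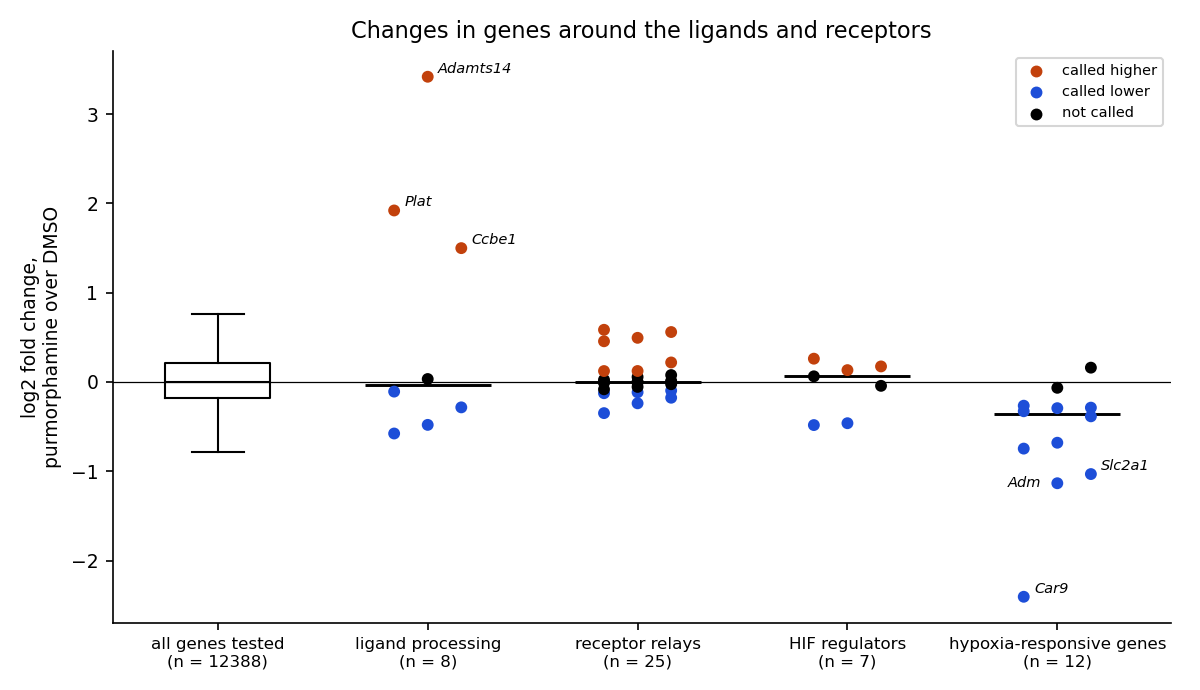
Log2 fold change of purmorphamine over DMSO (y axis, edgeR) for the tested genes of 4 lists, 1 point per gene with the list's median as a line, beside all genes tested (box from the 25th to the 75th percentile, whiskers at the 5th and 95th). The 3 increases in the first list are Adamts14, Plat and Ccbe1, and the hypoxia-responsive genes lie mostly below 0 with a median of -0.36.

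Markers of cell types that could carry these genes were counted beside them. The calls below stand against 31.4% of genes tested called higher and 31.1% lower. Of 9 endothelial markers with a row, Tie1, Emcn, Esam and Vwf had at most 3 reads in every library and Pecam1 at most 5, and of the 4 tested 2 were called higher (Tek and Cdh5) and 1 lower (Erg). Cdh5 passed the filter only through the purmorphamine libraries, and with at least 10 counts required in every library 1 was called higher. Tek supplied most of the sum of the list, which ran from 1055 to 1118 reads with vehicle and from 2020 to 2274 with purmorphamine. Cdh5 had no reads with vehicle and 21 to 26 with purmorphamine, and Erg fell from 246 ± 9.87 to 94 ± 5.89 reads. Pericyte markers summed to 1081 to 1193 and 1365 to 1612 reads, most of them from Cspg4 (2 called higher and 2 lower, but 1 higher without the vehicle library numbered 3 or the purmorphamine library numbered 6), with Kcnj8, Vtn and Ndufa4l2 at no more than 2. Those higher were Cspg4 (log2 fold change 0.43) and Notch3 (0.32). Those lower were Rgs5 (-0.79, from 33.7 ± 4.93 to 20 ± 5.35 reads) and Mcam (-0.74, from 57.3 ± 0.577 to 35.5 ± 11.3 reads). Leukocyte and epithelial markers summed to 17 to 25 and 113 to 136 reads, nearly all from Cdh1, with Ptprc, Itgam and Krt14 at no more than 1 read and Csf1r at no more than 3. The endothelial list was thus divided, with 5 of its 9 markers at or near 0 and Tek, Erg, Egfl7 (17 to 42 reads) and, with purmorphamine, Cdh5 above that. Tek, Cdh5, Cdh1, Cspg4 and Notch3 were thus called higher, Erg, Rgs5 and Mcam lower, and Egfl7 neither. Whether the cells that hold these markers are those that hold Pdgfra or Vegfa was not tested.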

How the data were processed

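RNA of 7 C3H10T1/2 libraries was sequenced by the authors from a stranded, ribosome-depleted kit. The submitters' processing notes name STAR 2.5.3a and mm9, and the annotation is not given in the sources used here. The authors resampled the reads to equal numbers per library and deposited whole-number counts of sense reads per gene. No per-sample column was left unused.

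Counts were fitted with edgeR 4.0.16 (limma 3.58.1, R 4.3.3): TMM factors, the default filter (a minimum of 10 counts and a total of 15), a quasi-likelihood test without covariates, calls at an FDR (Benjamini-Hochberg) of 0.2. The authors used limma-voom at that FDR. The fit was tested on simulated counts in which far fewer genes changed than were called here. Standard errors come from the log2 fold change and F. Exact permutation tests used 35 assignments. Alternatives were other scaling, filters and thresholds, DESeq2 1.42.0, limma-voom, another gene length and each library left out.

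Positions and lengths are from GENCODE M21 (GRCm38) by Ensembl identifier (95.5% of genes matched). The table's coordinates are of another build and were not used. Promoters are RefSeq's (GRCm38.p6).

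The genes and lists were chosen with earlier results of these data known. Genes named were the 10, all 8 further genes listed with them, and the 3 highest and 3 lowest called genes of the processing, relay, HIF regulator and hypoxia lists. Also named were the most abundant marker of each marker list, Gli1, Ptch1 and Hhip, and the 3 genes most correlated with the member that changed most. Further markers, Ctsd, Ankrd37 and Ero1l were named after their values were seen, and the motifs were chosen then as well. St14, Adamts3, Cldn5, Sox17, Higd1b, Emr1, Epcam and Krt5 were not analysed here.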

Additional observations from a re-analysis of the deposited data

Results flagged for a closer look

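In the 4 purmorphamine libraries 28 values were examined (the 10 genes and 5 others listed with them after TMM scaling, and 13 ratios, sums and shares). Of these, 2 had a library whose gap to the nearest one exceeded Dixon's critical value of 0.829 of the range, where chance gives about 1.4. Both come from the library numbered 8, with the highest Pdgfd and the lowest Pdgfa of its group. For the ratio of Pdgfd to Pdgfa per kilobase the gap was 0.948 of the range, with values of 2.77, 2.74, 2.72 and 3.62 in the libraries numbered 5 to 8. For the share of Pdgfa in the PDGF ligand sum it was 0.923, with values of 24.1%, 23.7%, 23.9% and 19.6%. Both remained outside the vehicle range in all 4 libraries. Without the library numbered 8, the log2 fold change was -0.76 for Pdgfd and 0.044 for Pdgfa.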

How the results depend on the processing

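No paired analysis was possible because DMSO libraries are numbered 2 to 4 and purmorphamine libraries 5 to 8. Requiring a change of 1.5-fold left 2 of the 10 genes higher (Pdgfra and Vegfa) and 2 lower (Pdgfd and Figf), and 977 higher and 936 lower of all genes, in place of 3887 and 3854, by the construction of the threshold. Pdgfra, Vegfa, Vegfb, Pdgfc, Pdgfd, Figf and Pdgfb kept their direction and their call in all 13 refits (scaling, filter, DESeq2, limma-voom and each library left out). Vegfc kept its direction and its call in 5 of the 13. With each library left out, genes higher and lower among the 10 ran from 4 to 4 and from 3 to 4, and over all genes from 3500 to 3961 and from 3374 to 3793. The uncalled genes changed sign. The log2 fold change of Pdgfa was 0.046 with library totals alone, 0.0040 without a filter and 0.0024 with at least 10 counts in every library, and ran from -0.053 to 0.047 with single libraries left out. That of Pdgfrb was 0.020 with library totals alone and ran from -0.061 to 0.0094. For these the cause was not tested, and none of the fits called either gene. Library totals alone moved the median log2 fold change of all genes from 0.0038 to 0.051. Depth limits Pdgfb, Pdgfc and Vegfc most, with means of at most 120.5 reads. Gene length moved the levels but, with purmorphamine, not their order.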
